A study of Mus musculus with 5 samples.

Results

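The genes of fatty acid oxidation and ketogenesis were followed in bulk RNA-seq of Akt/Notch liver tumors with or without late Prox1 overexpression. The set held 38 genes of the 55397 listed, listed by symbol for their place in the pathway, with earlier results of these data known. It comprised 22 genes of mitochondrial enzymes, 8 of peroxisomal proteins, 3 of enzymes found in both organelles, 3 of enzymes in the cytosol or on membranes facing it, and the regulators Ppara and Ppargc1a.

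The 5 libraries came from dissected liver tumors of female C57BL/6N mice that received plasmids by hydrodynamic tail vein injection at 8 weeks of age. This injection forces DNA into hepatocytes, of which only some take it up. All mice carried Akt and the Notch1 intracellular domain (NICD), both driven by the EF1a promoter and inserted into the genome by the Sleeping Beauty transposase, with the doxycycline-dependent activator rtTA on the NICD plasmid. For the 3 Prox1 OE samples a doxycycline-responsive plasmid carried FLAG-tagged mouse Prox1 and GFP, and for the 2 Control samples the same plasmid carried GFP without Prox1. The mice received food with 6.25% doxycycline from day 21, so that Prox1 was switched on between weeks 3 and 4. The labels name collection after 1 week of overexpression or at the humane endpoint and do not say which applied to which tumor, nor whether a library holds 1 nodule or several. The study counts its RNA-seq samples in mice, without tying a library to an animal.

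Fatty acids are activated to acyl-CoA by synthetases, carried into mitochondria on carnitine, and shortened there by repeated dehydrogenation, hydration, a further dehydrogenation and thiolysis. Peroxisomes run a parallel cycle on very long and branched chains and pass the shortened products on. Hepatocytes are known for both pathways and for turning surplus acetyl-CoA into ketone bodies, and the nuclear receptor PPARA with its coactivator PGC-1 alpha (gene Ppargc1a) is known to drive many of these genes during fasting.

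Libraries held 48740863 to 56629477 reads. Prox1 itself had 4153 and 4664 normalized counts (reads divided by the size factor of the library) in Control, and 48090, 11113 and 8231 in Prox1 OE. All 3 exceeded Control, with replicate 1 far above the others (log2 fold change 1.90, limma adjusted p = 0.0607, and 1.12 with limma adjusted p = 0.00556 without replicate 1). The other plasmid genes were lower in Prox1 OE, Akt1 with 57782 and 55267 against 30413, 29720 and 22530 normalized counts (log2 fold change -1.05, adjusted p = 0.00574), and Notch1 with 13002 and 11967 against 7027, 5094 and 4524 (-1.19, adjusted p = 0.00463). Reads from the plasmids and from the mouse genes cannot be told apart here, and the part of this difference in the results that follow was not tested. Of 10 hepatocyte markers, 7 passed the test as higher in Prox1 OE (median log2 fold change 1.42; the largest were Tat at 2.72 and Ttr at 1.79), and the list took 3.07% and 4.19% of Control reads against 6.55% to 8.20% of Prox1 OE reads. Of 8 cholangiocyte markers, 7 were tested and 6 were lower (median -1.21; the largest falls were those of Krt7 at -2.50 and Krt19 at -2.41), with summed levels of 758046 to 827243 in Control and 523538 to 707471 in Prox1 OE. Spp1, the tested marker that was not called (-0.34, adjusted p = 0.514), carried most of that sum, and the other 7 markers summed to 42494 and 46035 in Control and to 14220 to 18646 in Prox1 OE. Summed Kupffer cell markers ran from 6501 to 9470 in Control and from 15538 to 24643 in Prox1 OE (3 of 6 higher). The corresponding sums for endothelium were 7710 to 9943 and 9676 to 14007 (median 0.09, with 2 of 6 higher, Clec4g and Stab2). Of the other endothelial markers, none called, Pecam1 was at -0.27, Cdh5 at -0.33 and Lyve1 at -0.53, and Kdr at 0.44. For stellate cells the sums were 10577 to 11453 and 13158 to 15045 (3 of 6 higher). For lymphocytes they were 124 to 141 and 239 to 398 (3 of 5 tested higher). Of the adipocyte markers, which also express fatty acid enzymes, Lep was at 0 and Adipoq, Plin1 and Ucp1 had at most 3.39 normalized counts in any library, whereas Cidea, which carried the summed level of 1455 to 2445 in Control and 5445 to 7637 in Prox1 OE, rose (1.81). In skeletal muscle, another oxidative tissue, Myh4 was at 0 and Ckm had 110.9 normalized counts in Control replicate 1 and 1.16 to 4.09 in the others (summed markers 45.8 to 134.7 in Control and 16.4 to 45.1 in Prox1 OE, with 0 of 2 tested called by limma or at an unadjusted p under 0.05, and 1 called lower by edgeR and by DESeq2). The part of cell composition in the results that follow was not tested, and in bulk tumors more cells of a type cannot be told apart from more RNA per cell.

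Nearly the whole pathway was higher in Prox1 OE tumors. Of the 38 genes, all tested, 33 passed the test as higher and 0 as lower, where 17.1% of all 17105 genes tested were called higher and 16.2% lower. Among the 7783 abundant genes with a mean of at least 1000 normalized counts, a limit chosen after the data were seen and met by 35 members, 24.0% were called higher. No member was lower at an unadjusted p under 0.05 either (0 genes), and edgeR and DESeq2 on recovered reads also called 0 lower, with 33 and 34 called higher. The 33 log2 fold changes ran from 0.51 (Crot) to 2.37 (Acaa1b), 19 of them at 1 or more, with adjusted p-values from 0.00178 to 0.0302. The median over the 38 genes was 1.01, against -0.02 over all genes tested. In 35 members every Prox1 OE library exceeded both Control libraries, which held for 30.9% of all genes. Together the 38 genes took 0.596% and 0.614% of reads in Control replicates 1 and 2, and 0.928%, 0.898% and 0.954% in Prox1 OE replicates 1, 2 and 3.

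The number of calls, over members and over all genes, depended on the scaling and on the Control libraries. Scaling by total count, which moved the median of all genes to -0.44, left 23 members higher and 1 lower, where 8.62% of all genes were called higher, with a member median of 0.58 that was 1.02 above the median of all genes, and turned the sign of Ppargc1a, Eci2 and Acot1 without a call. Under that scaling 17.8% of all calls were higher, in place of 51.4%. Without Control replicate 1, which leaves a single Control library assumed to vary like the Prox1 OE group, 3.98% of all genes were called higher in place of 17.1%, 16 members remained higher and the calls of Cpt1a, Acadl, Acadm, Hadha, Hadhb, Echs1, Etfa, Etfb, Etfdh, Acsl1, Acaa1a, Acaa2, Crot, Abcd2, Abcd3, Bdh1 and Acat1 were lost (adjusted p from 0.0503 to 0.215). Without Control replicate 2, 8.40% of all genes were called higher, 23 members remained, and Cpt1a, Acadl, Hadha, Hadhb, Etfa, Etfdh, Acot2, Crot, Abcd3 and Acat1 lost theirs (0.0531 to 0.171). In every one of the 5 fits that left out a library, 37 of 38 fold changes were positive.

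**Figure D1:**
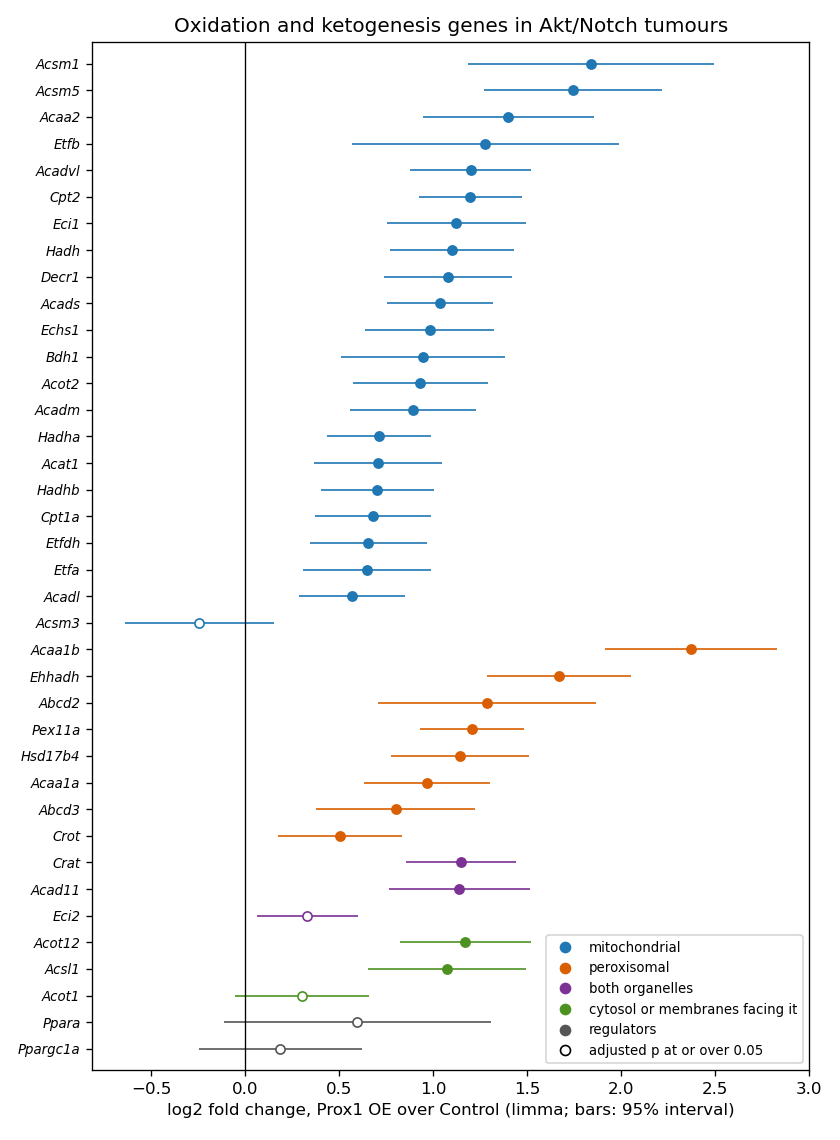
Log2 fold change of each of the 38 genes, Prox1 OE over Control, with its 95% interval from limma (horizontal axis) and genes grouped by compartment (vertical axis). Filled points passed an adjusted p of 0.05. Acaa1b lies farthest to the right at 2.37, and the 5 open points are Acsm3, Eci2, Acot1, Ppara and Ppargc1a.

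Neither regulator passed the test, which had no replicate block. Ppara, the fatty acid receptor, had 767 and 611 normalized counts in Control and 1577, 725 and 971 in Prox1 OE. Replicate 2 of Prox1 OE fell between the Control libraries, so that the groups overlapped (log2 fold change 0.60, 95% interval -0.11 to 1.31, adjusted p = 0.167). The log2 fold change of Ppara was 0.29 without Prox1 OE replicate 1, 0.85 without replicate 2 and 0.64 without replicate 3, none called. A fit with the replicate number as a block called Ppara (0.64, limma adjusted p = 0.0325, with 0.0325 to 0.680 over all alternatives). In that fit Prox1 OE replicate 3, which has no Control of its number, adds nothing to the fold change. Ppargc1a, its coactivator, had 377 and 366 normalized counts in Control and 350, 444 and 488 in Prox1 OE. Replicate 1 lay below both Control libraries and the others above them (0.19, interval -0.25 to 0.62, adjusted p = 0.467). The intervals reach changes as large as those of some called enzymes, so they do not show that either regulator stayed level. Rxra, the partner with which PPARA binds DNA, named after its values were seen, was higher (0.76, adjusted p = 0.00684).

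All 8 peroxisomal members of the set were called higher, with a median of 1.18. Of all genes tested 17.1% were called higher, a share that also stands beside the counts by role that follow. Acaa1b (mm10 chr9:119148023-119157093), a thiolase that completes the peroxisomal cycle, had 11499 and 14999 normalized counts in Control and 58929, 66044 and 80618 in Prox1 OE. The lowest Prox1 OE library lay well above the higher Control library, and the means were 13249 ± 2475 (SD, n = 2) and 68531 ± 11056 (SD, n = 3), a ratio of 5.17 and a log2 fold change of 2.37 (SE 0.20, adjusted p = 0.00178). Acaa1a (chr9:119339676-119350299), the sister thiolase, had 4395 and 5232 against 8258, 9645 and 10364. It too had separate groups, with a smaller change (0.97, adjusted p = 0.00381). The ratio of Acaa1b to Acaa1a counts was 2.62 and 2.87 in Control and 7.14, 6.85 and 7.78 in Prox1 OE, given as a description because the pair was chosen after its values were seen. The coding sequences are 96.5% identical over 1275 bases, and 22.6% of the 100-base windows of Acaa1b transcripts also occur in Acaa1a, so counts of the pair are uncertain by the reads they share.

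Ehhadh encodes the L-bifunctional enzyme, which combines the hydratase and dehydrogenase steps and is a classic PPARA target. It had 3418 and 3401 normalized counts in Control and 12892, 8904 and 11153 in Prox1 OE. The Control libraries were nearly equal and all 3 Prox1 OE libraries were far above them, a ratio of 3.22 (1.67, SE 0.16, adjusted p = 0.00226). Hsd17b4, the D-bifunctional enzyme that also handles branched chains and bile acid precursors, had 12538 and 13110 against 31623, 24036 and 29914. Its groups were separate as well (1.14, adjusted p = 0.00322).

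Among peroxisomal membrane genes, Abcd2, a transporter of very long chain acyl-CoA that is low in liver, had 377 and 670.5 normalized counts in Control and 1253, 1067 and 1388 in Prox1 OE. The Control libraries were spread widely for this gene but stayed below all Prox1 OE libraries (1.29, SE 0.25, adjusted p = 0.00851). The main liver transporter Abcd3 had 10620 and 12030 against 19594, 16273 and 24004. Its change was smaller (0.80, adjusted p = 0.0148). Pex11a, which promotes peroxisome division, had 4248 and 4068 against 8988, 9355 and 10513. Replicates agreed closely within both groups (1.21, SE 0.12, adjusted p = 0.00224). Crot, which makes carnitine esters for export from the peroxisome, had 17485 and 17759 against 22779, 24591 and 28003. It showed the smallest called change of the set (0.51, adjusted p = 0.0302), and its call was lost in 8 of 16 alternatives, among them the fits without Control replicate 1, Control replicate 2, Prox1 OE replicate 2 and Prox1 OE replicate 3 (adjusted p from 0.0645 to 0.215; 0.00182 to 0.651 over all alternatives).

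The 300 bases around the annotated starts of the peroxisomal genes with the largest rises are printed to show what lies next to the promoter, with each CG in capitals. Acaa1b is shown at chr9:119157044-119157343 and Ehhadh at chr16:21787785-21788084, both on the minus strand of GRCm38.p6 (RefSeq), from 250 bases before the start to 50 after it.
Acaa1b: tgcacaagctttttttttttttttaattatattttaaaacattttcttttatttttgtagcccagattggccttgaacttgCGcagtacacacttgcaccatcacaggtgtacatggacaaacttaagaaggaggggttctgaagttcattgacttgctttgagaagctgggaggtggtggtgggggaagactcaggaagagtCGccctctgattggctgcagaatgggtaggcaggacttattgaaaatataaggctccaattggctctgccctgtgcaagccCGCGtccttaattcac
Ehhadh: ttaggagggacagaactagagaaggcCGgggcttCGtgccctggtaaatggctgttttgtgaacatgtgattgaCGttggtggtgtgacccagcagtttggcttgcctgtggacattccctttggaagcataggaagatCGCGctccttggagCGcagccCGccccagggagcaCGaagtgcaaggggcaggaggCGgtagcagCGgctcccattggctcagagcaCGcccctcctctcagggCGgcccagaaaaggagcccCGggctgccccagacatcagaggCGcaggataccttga
The Acaa1b window held 4 CG pairs and the Ehhadh window 14, with observed over expected CG of 0.284 and 0.515. None of the motifs searched occurred in either window. RefSeq promoters were found for 32 of the 38 members, 35 windows in all, with a median observed over expected CG of 0.561 against 0.384 over 32851 windows of all genes. The PPAR-RXR element, 2 copies of AGGTCA 1 base apart with up to 2 mismatches on either strand, occurred in 3 of the 35 windows (8.57%) and in 3.86% of all windows. The matches, with capitals where they equal the element, were as follows.
Acot12, chr13:91741411-91741423: AGGTgAGAGGTCA
Etfa, chr9:55512308-55512320: AGGgCAAAGGTaA
Echs1, chr7:140116492-140116504: AGGTCACgGGTCc
The Acot12 match begins 110 bases before that start and had 1 mismatch, and the other two had 2. The oestrogen-related receptor element TNAAGGTCA was in 0 of 35 windows (1.28% of all), and the HNF4 element CAAAGTCCA in 1, that of Abcd3 (0.475% of all). More distant elements were not searched.

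Acyl-CoA synthetases of a gene cluster on chromosome 7 had unlike values, and the difference between them was not tested. Acsm1, a medium-chain synthetase of the mitochondrial matrix, had 2120 and 3064 normalized counts in Control and 6866, 8416 and 13146 in Prox1 OE. Every Prox1 OE library was far above the higher Control library, a ratio of means of 3.66 (1.84, SE 0.28, adjusted p = 0.00406). Acsm5, a member of the same family, had 729 and 1015 against 3004, 2343 and 3406. The groups were again far apart (1.74, SE 0.20, adjusted p = 0.00255). Acsm3, of the same cluster, had 6686 and 6975 in Control and 7144, 4869 and 5504 in Prox1 OE. Prox1 OE replicate 1 lay above both Control libraries and the other two below them (-0.24, interval -0.64 to 0.15, adjusted p = 0.298). Without Prox1 OE replicate 1 Acsm3 was called lower (-0.40, adjusted p = 0.0260; 0.0164 to 0.599 over all alternatives). The ratio of Acsm1 to Acsm3 counts was 0.317 and 0.439 in Control and 0.961, 1.73 and 2.39 in Prox1 OE, and that of Acsm5 to Acsm3 was 0.109 and 0.145 against 0.420, 0.481 and 0.619. These ratios were chosen after the values were seen and are given as a description. Acsl1, the long-chain synthetase, was higher (1.07, adjusted p = 0.00546).

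In mm10, Acsm5 spans chr7:119519463-119545551, Acsm1 chr7:119607026-119662515 and Acsm3 chr7:119760923-119787513, all on the plus strand. Acsm2 (chr7:119554340-119600690) lies between Acsm5 and Acsm1, and Acsm4 (chr7:119690026-119714565) between Acsm1 and Acsm3. Acsm2 had 16.4 and 9.32 normalized counts in Control and 27.6, 20.1 and 39.3 in Prox1 OE (1.11, adjusted p = 0.0990, not called), and Acsm4, with at most 15.3 in any library, was not tested. RefSeq start windows of the 3 members on GRCm38.p6 are printed as those of the cluster members in the set, Acsm3 having been added after its values were seen, with each CG in capitals. The windows are chr7:119526015-119526314 for Acsm5, chr7:119617562-119617861 for Acsm1 and chr7:119760673-119760972 for Acsm3, of which those of Acsm5 and Acsm1 lie inside the longer GENCODE gene models.
Acsm5: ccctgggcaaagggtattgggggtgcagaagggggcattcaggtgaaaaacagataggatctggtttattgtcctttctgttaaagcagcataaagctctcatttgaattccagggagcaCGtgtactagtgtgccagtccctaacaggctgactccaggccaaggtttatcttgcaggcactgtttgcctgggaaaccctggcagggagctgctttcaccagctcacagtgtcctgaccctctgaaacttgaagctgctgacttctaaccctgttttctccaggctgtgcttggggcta
Acsm1: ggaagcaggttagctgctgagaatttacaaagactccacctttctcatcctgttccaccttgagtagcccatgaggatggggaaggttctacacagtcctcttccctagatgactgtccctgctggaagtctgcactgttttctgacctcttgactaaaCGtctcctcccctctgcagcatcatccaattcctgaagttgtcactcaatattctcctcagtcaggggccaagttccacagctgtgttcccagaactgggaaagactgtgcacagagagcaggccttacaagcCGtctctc
Acsm3: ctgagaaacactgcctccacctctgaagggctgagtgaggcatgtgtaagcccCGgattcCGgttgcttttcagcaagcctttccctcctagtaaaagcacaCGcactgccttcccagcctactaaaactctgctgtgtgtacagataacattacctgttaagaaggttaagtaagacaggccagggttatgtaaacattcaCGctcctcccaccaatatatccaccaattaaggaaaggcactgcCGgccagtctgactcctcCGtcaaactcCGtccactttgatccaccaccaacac
The Acsm5 window held 1 CG pair, the Acsm1 window 2 and the Acsm3 window 7. None of the 3 motifs occurred in these windows. Coding sequences of Acsm3 are 64.6% identical to Acsm1 and 66.8% to Acsm5, and none of their 100-base transcript windows occurs in another gene.

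All 4 carnitine shuttle genes of the set were higher, the peroxisomal Crot among them. Cpt2, which reforms acyl-CoA on the inner mitochondrial membrane, had 3331 and 3418 normalized counts in Control and 7304, 7448 and 8516 in Prox1 OE. Replicates were tight within each group and the groups far apart, a ratio of 2.30 (1.20, SE 0.12, adjusted p = 0.00224). Crat, the acetyl transferase of mitochondria and peroxisomes, had 3355 and 3030 against 7879, 6620 and 6769. All Prox1 OE libraries were far above Control (1.15, adjusted p = 0.00242). Cpt1a, the malonyl-CoA sensitive enzyme that admits long chains to mitochondria, changed by 0.68 (adjusted p = 0.00869).

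All 5 acyl-CoA dehydrogenases, which open each round of the cycle, were higher. Acadvl, specific for very long chains, had 9758 and 10918 normalized counts in Control and 22024, 23032 and 26282 in Prox1 OE. The groups were separate (1.20, adjusted p = 0.00251). Acad11, found in mitochondria and peroxisomes, had 7372 and 8210 against 19046, 14222 and 18561. Replicate 2 was the lowest Prox1 OE library but still above Control (1.14, adjusted p = 0.00338). The short-chain enzyme Acads rose by 1.04, the medium-chain Acadm by 0.89 and the long-chain Acadl by 0.57.

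Electrons from these enzymes pass through the flavoprotein ETF to its ubiquinone oxidoreductase. Etfb, the beta subunit, had 1156 and 1593 normalized counts in Control and 2140, 3720 and 4482 in Prox1 OE. Prox1 OE replicate 1 was closer to Control than the others were (1.28, SE 0.30, adjusted p = 0.0176), and without Prox1 OE replicate 2 or Control replicate 1 the call was lost (adjusted p = 0.0702 and 0.138; 0.000148 to 0.138 over all alternatives). Etfdh, the oxidoreductase, had 6998 and 7238 against 11813, 9809 and 12138. The groups were separate with a smaller change (0.65, adjusted p = 0.0104). Etfa, the alpha subunit, also changed by 0.65 (adjusted p = 0.0145). Of the 100-base windows of Etfb transcripts, 47.7% also occur in the gene model Gm45233, which was listed at 0 in every library, so its counts depend on how shared reads were assigned.

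The hydratase, dehydrogenase and thiolase steps in mitochondria were higher in 5 of 5 genes. Acaa2, the thiolase, had 14984 and 18963 normalized counts in Control and 38342, 42647 and 53948 in Prox1 OE. The lowest Prox1 OE library was far above the higher Control library (1.40, SE 0.19, adjusted p = 0.00326). Hadh, the dehydrogenase of shorter chains, had 11959 and 12662 against 25233, 24438 and 29768. These groups did not overlap (1.10, adjusted p = 0.00281). Echs1, the short-chain hydratase, rose by 0.98. Hadha and Hadhb, the alpha and beta subunits of the trifunctional protein that lie head to head on chromosome 5, rose by 0.71 and 0.70. Their count ratio was 2.18 ± 0.07 (SD, n = 2) in Control and 2.20 ± 0.17 (SD, n = 3) in Prox1 OE, a description of the pair chosen after its values were seen. Hadhb shares 46.0% of its windows with the pseudogene Gm13910, which had 22.9 to 44.0 normalized counts.

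Auxiliary enzymes prepare unsaturated chains for the cycle. Eci1, the mitochondrial enoyl-CoA isomerase, had 2869 and 3162 normalized counts in Control and 5682, 6270 and 7928 in Prox1 OE. All Prox1 OE libraries were higher (1.12, adjusted p = 0.00338). Decr1, the dienoyl-CoA reductase, had 8249 and 8827 against 16152, 17370 and 20946. It changed to a like extent (1.08, adjusted p = 0.00314). Eci2, an isomerase of both organelles, had 8534 and 8082 against 9778, 11012 and 10597. The groups did not overlap, yet the change was small and not called (0.33, interval 0.06 to 0.60, adjusted p = 0.0623). Without Prox1 OE replicate 1 it was called (0.38, adjusted p = 0.0235; 0.0233 to 0.568 over all alternatives).

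Thioesterases release free fatty acids from CoA. Acot12, a cytosolic acetyl-CoA hydrolase, had 1775 and 2098 normalized counts in Control and 4807, 3720 and 4594 in Prox1 OE. The groups were separate (1.17, adjusted p = 0.00280). Acot2, in mitochondria, had 780 and 627 against 1239, 1500 and 1280. Its groups were separate too (0.93, adjusted p = 0.00519). The cytosolic Acot1 had 1646 and 1805 against 1874, 2531 and 2018. Every Prox1 OE library was above both Control libraries, replicate 1 by a small margin, without a call (0.30, interval -0.06 to 0.66, limma adjusted p = 0.166). Acot1 and Acot2 are 95.5% identical over 1239 aligned coding bases and share 17.1% of Acot2 windows, so the split of reads between them is uncertain.

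Both member enzymes of ketone body metabolism were higher. Bdh1, which converts acetoacetate to 3-hydroxybutyrate, had 7141 and 9130 normalized counts in Control and 13080, 15368 and 18824 in Prox1 OE. Acat1, the mitochondrial acetoacetyl-CoA thiolase that acts in making and in using ketone bodies, had 16445 and 18214 against 27454, 26002 and 31561. The groups were separate for both genes, with log2 fold changes of 0.95 (adjusted p = 0.00912) and 0.71 (adjusted p = 0.0107). Outside the set, Oxct1, which activates acetoacetate for use as fuel and is normally scarce in hepatocytes, had 4930 and 4411 in Control and 2234, 2240 and 2145 in Prox1 OE, a log2 fold change of -1.08 (adjusted p = 0.00234).

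**Figure D2:**
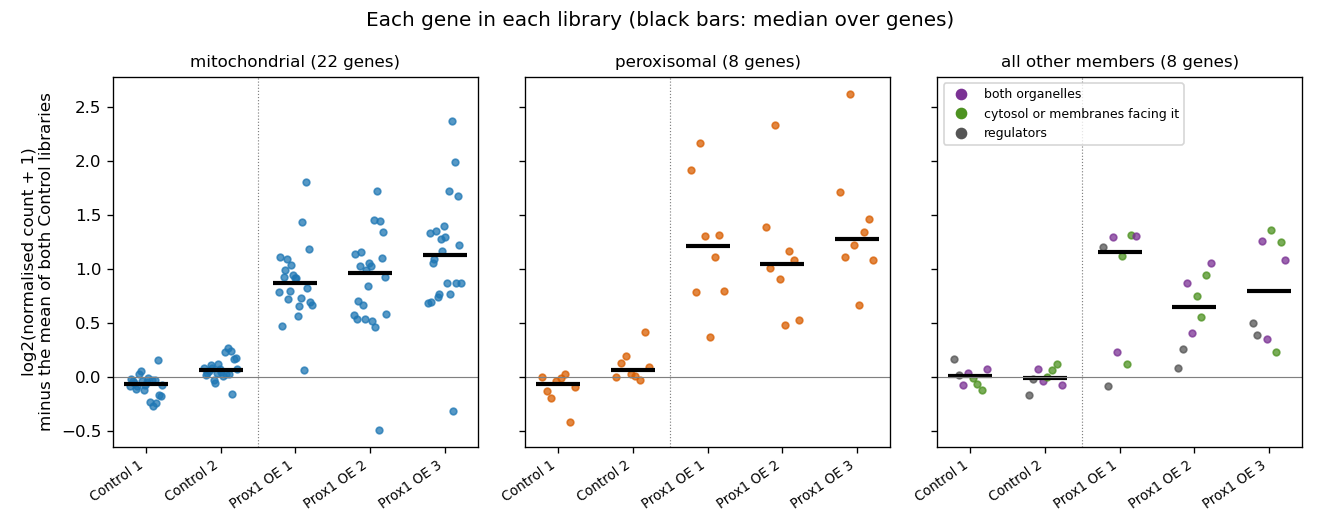
Level of each gene in each library as log2(normalized count + 1) minus the mean of both Control libraries (vertical axis), for the 5 libraries (horizontal axis), in 3 panels by compartment. Black bars are medians over genes, which in Prox1 OE replicates 1, 2 and 3 were 0.87, 0.96 and 1.13 for mitochondrial genes and 1.21, 1.05 and 1.28 for peroxisomal genes.

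Libraries of a group differed in a way shared by many members and hepatocyte markers. How many of all genes did the same was not counted, so the pattern is not shown to be particular to the set. Prox1 OE replicate 3 was the highest of its group for 26 of 38 members and for 9 of 10 hepatocyte markers, and the lowest for 0 members. Prox1 OE replicate 1, with the most Prox1, was the highest for 9 members and the lowest for 18, and Prox1 OE replicate 2 the highest for 3 and the lowest for 20. Control replicate 2 exceeded Control replicate 1 in 29 of 38 members and in 9 of 10 hepatocyte markers. The summed members were 2.07 times the Control level in Prox1 OE, and the summed hepatocyte markers 2.68 times. Alb and Trf, with Control means of 639684 and 464199, carried most of the hepatocyte sum of 1623900 and so of that list's share of reads. Their ratios were 3.20 and 2.13, and Trf was not called.

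Levels per kilobase of exon were highest for Acaa2 and Acaa1b. Acaa2 led in Control with 11196 normalized counts per kilobase, followed by Acaa1b with 6753 and Etfa with 6045, and in Prox1 OE Acaa1b led with 34929, followed by Acaa2 with 29670 and Etfa with 9547. The lowest levels per kilobase were those of Ppargc1a, at 56.4 in Control and 64.8 in Prox1 OE, and Abcd2, at 88.1 and 208. Exon length joins the annotated exons of all transcripts of a gene, so the order depends in part on annotation. Neighbors in this order were not tested against each other.

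**Figure D3:**
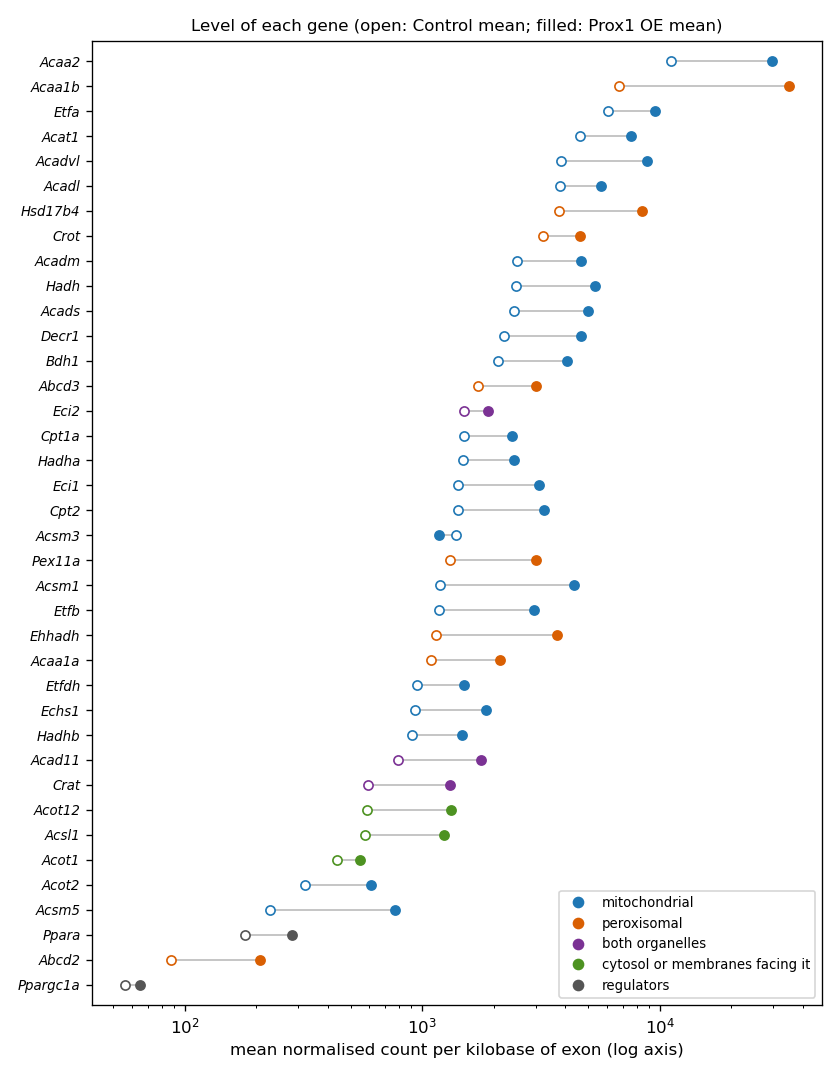
Mean normalized count per kilobase of exon (horizontal log axis) of each gene (vertical axis, ordered by the Control mean), with open points for Control and filled points for Prox1 OE. Acaa1b passes from 6753 to 34929, and Acsm3 is the gene whose filled point lies to the left, at 1183 against 1384.

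Mitochondrial and peroxisomal genes were then compared within each library, as the log2 ratio of the mitochondrial to the peroxisomal gene for 4 pairs of related steps. The steps are not equal in all pairs. Cpt2 reforms acyl-CoA whereas Crot makes carnitine esters, and Hadh is a dehydrogenase whereas Hsd17b4 combines a D-specific hydratase and dehydrogenase. With 2 against 3 libraries there are 10 splits, so a two-sided exact permutation test cannot give a p below 0.1, and 0.133 was the lowest value after adjustment over the 4 pairs. At the hydratase and dehydrogenase step, the log2 ratio of Hadha to Ehhadh was 1.95 and 1.90 in Control and 0.73, 1.21 and 0.96 in Prox1 OE. The groups were separate, with a shift of -0.96 toward the peroxisomal gene (exact permutation p = 0.1). At the carnitine step the log2 ratio of Cpt2 to Crot was -2.39 and -2.38 in Control and -1.64, -1.72 and -1.72 in Prox1 OE. This shift of 0.69 was toward the mitochondrial gene, again with separate groups (exact permutation p = 0.1). Among thiolases, the log2 ratio of Acaa2 to Acaa1a was 1.77 and 1.86 against 2.21, 2.14 and 2.38. It moved by 0.43 toward the mitochondrial gene (exact permutation p = 0.1). With Acaa1b, the more abundant peroxisomal thiolase, the direction was the opposite. The log2 ratio of Acaa2 to Acaa1b was 0.38 and 0.34 in Control and -0.62, -0.63 and -0.58 in Prox1 OE, a shift of -0.97 toward the peroxisomal gene, given as a description because it was computed after the values were seen. The log2 ratio of Hadh to Hsd17b4 was -0.07 and -0.05 in Control and -0.33, 0.02 and -0.01 in Prox1 OE. Groups overlapped for this pair (difference -0.04, exact permutation p = 1). Without Prox1 OE replicate 1 the difference was 0.068. The summed peroxisomal genes were 2.55 times the Control level in Prox1 OE and the summed mitochondrial genes 1.92 times, and this difference was not tested. Without Acaa1b the other 7 peroxisomal genes summed to 1.92 times Control, and without Acaa2 the other 21 mitochondrial genes summed to 1.84 times.

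**Figure D4:**
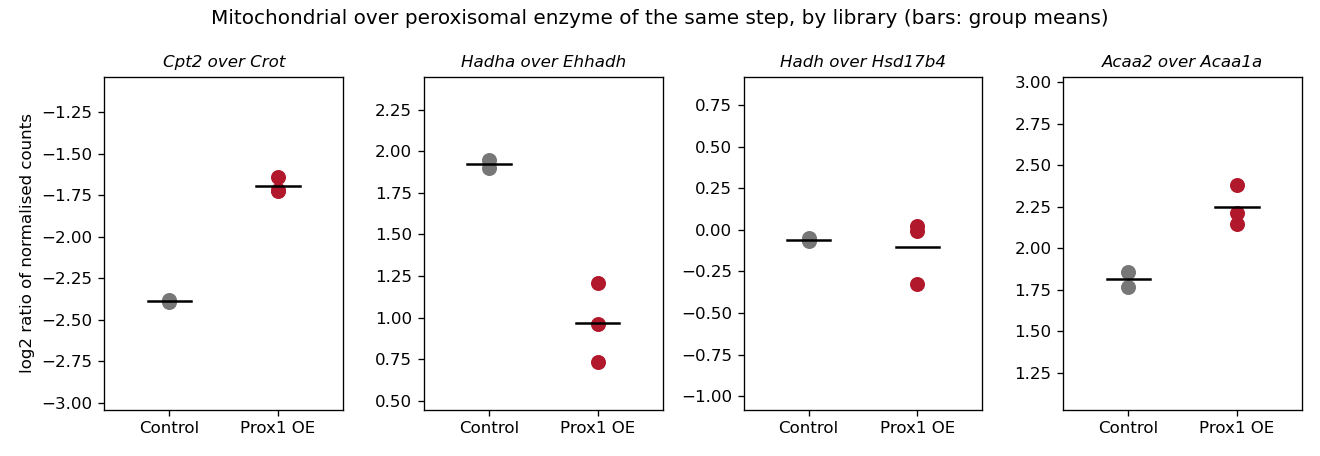
Log2 ratio of normalized counts of the mitochondrial over the peroxisomal enzyme (vertical axes, each spanning 2 units) for 4 pairs of related steps. Control and Prox1 OE are on the horizontal axes, with 1 point per library and bars at group means. Hadha over Ehhadh falls from 1.93 to 0.97, Cpt2 over Crot rises from -2.38 to -1.69, and Hadh over Hsd17b4 overlaps.

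Other genes of the pathway, from lists written with earlier results of these data known, moved as follows. For each list from here on, the share over all genes tested was 17.1% called higher and 16.2% called lower. Of 41 further oxidation and ketogenesis genes, 38 were tested, 29 were higher and 1 was lower (Oxct1), with a median of 1.02. The largest rises were those of Acacb (2.10), which makes the malonyl-CoA that inhibits Cpt1a and so opposes entry into the cycle, and of the peroxisomal isomerase Eci3 (2.02). Of 20 PPARA targets outside oxidation, 19 were tested, 15 were higher and 0 lower by limma, edgeR and DESeq2 alike, with a median of 1.34. Fabp1, the liver fatty acid binding protein, rose by 2.35 and the mitochondrial carrier Slc25a47 by 1.89. The 4 tested but not called were Vnn1 (0.52), Pdk4 (0.42), Ucp2 (0.28) and Txnip (0.17), the lowest of this list.

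Other peroxisomal genes and enzymes of the TCA cycle were mostly higher. Of 25 peroxisome biogenesis and matrix genes, 24 were tested, 18 were higher and 0 lower by limma (median 0.84; 1 lower at an unadjusted p under 0.05 and by DESeq2, 0 by edgeR), led by Agxt, the glyoxylate aminotransferase, at 2.70 and the membrane protein Pxmp2 at 1.66. Of 19 genes of mitochondrial mass and the TCA cycle, 13 were higher and 0 lower by limma (median 0.53; 0 at an unadjusted p under 0.05, by edgeR or by DESeq2), led by Sdhb at 1.08 and Fh1 at 0.94. The 6 not called were the outer membrane channel Vdac1 (0.23), the import subunits Tomm20 (-0.03), Tomm40 (0.13) and Timm23 (0.29), and the TCA cycle genes Idh3a (-0.12) and Ogdh (0.18). Of 20 regulator partners, 8 were higher and 4 lower (median 0.28), where 17.1% and 16.2% of all genes tested were called, and edgeR called 8 higher and 3 lower and DESeq2 9 and 5. The corepressor Nr0b2 (2.56) and the oxysterol receptor Nr1h3 (1.63) rose most, while the corepressor Ncor1 (-0.56) and the PGC-1 related coactivator Pprc1 (-0.47) fell most.

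**Figure D5:**
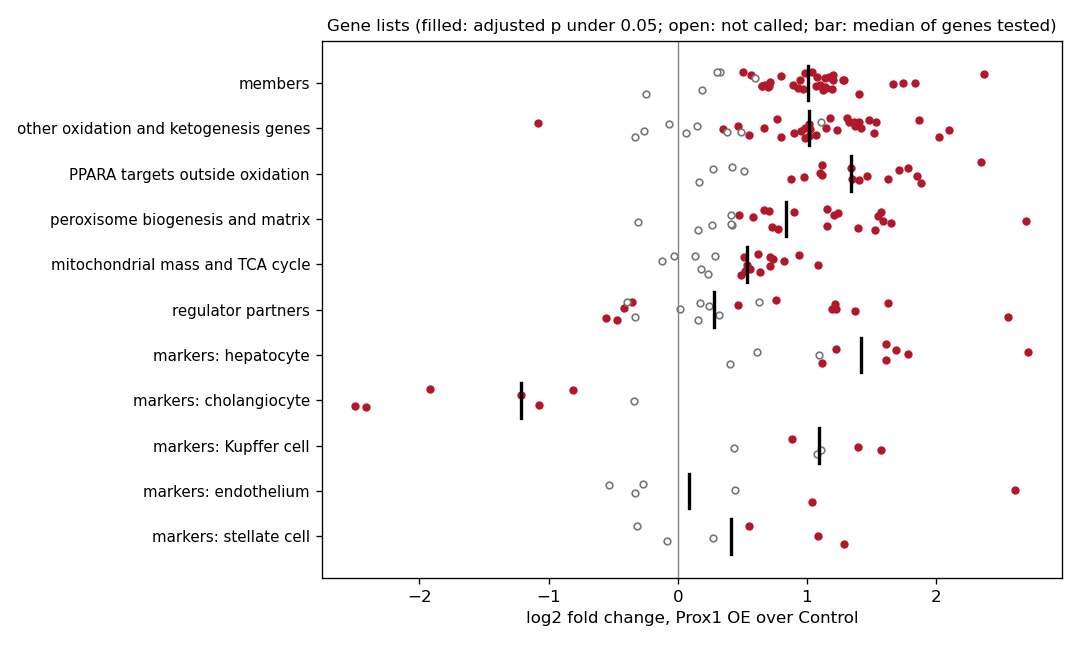
Log2 fold change, Prox1 OE over Control (horizontal axis), of every tested gene of each list (vertical axis), filled where the adjusted p was under 0.05, with bars at the medians. The members center on 1.01, mitochondrial mass and TCA cycle genes on 0.53, hepatocyte markers on 1.42 and cholangiocyte markers on -1.21.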

How the data were processed

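Bulk RNA-seq of 2 Control and 3 Prox1 OE tumors was used. The authors prepared strand-marked (dUTP) libraries, sequenced pairs of 100-base reads, and mapped them to mm10 with STAR, per the labels and methods. The counting tool is not given in the sources used here. The deposited values are a normalized signal for each gene: counts that the authors divided by DESeq2 size factors, from which whole reads were recovered for 100% of values (within 0.01 read). Replicate numbers come from the sample titles, and the study counts these samples in mice without tying each library to an animal, so p-values measure the spread between these samples. A second deposited table, of the authors' own comparison, was not used.

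Genes with a mean of at least 10 normalized counts (17105) were tested on log2(normalized count + 1) with limma 3.58.1 in R 4.3.3 (eBayes with trend, two-sided, Benjamini-Hochberg, threshold 0.05), with no covariate. This scale understates changes of low genes. On simulated counts for this comparison, the procedure called 82 of 100 genes changed 4-fold and 57 of 100 changed 2-fold. The changed genes were drawn from all levels tested and the other 16905 were unchanged, whereas 5702 genes were called in the data. These rates therefore need not hold for the members. Step pairs were tested by exact permutation. Alternatives were other scalings, pseudocounts and filters, limma without trend, edgeR 4.0.16 and DESeq2 1.42.0 on recovered reads, a replicate block, and each library left out.

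Symbols, coordinates and exon lengths came from GENCODE for GRCm38 (55137 of 55397 identifiers matched). Members and lists were chosen with earlier results of these data known. Values in every library are given for regulators, peroxisomal and dual-organelle members, ketone body enzymes, members not called, and the 2 largest changes of each other role. Of each list of further pathway, regulator or organelle genes, the 2 largest called changes in each direction are named. Results for some genes are not reported here.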

Additional observations from a re-analysis of the deposited data

How the results depend on the processing

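The count of 33 members called higher was between 23 and 34 under the 11 alternatives that left out no library, with 23 under total count as library size. Among these, the replicate block draws nothing for the fold change from Prox1 OE replicate 3, which has no Control of its number. Its member median of 0.95 was that of the fit without that library. The count ran from 31 to 34 when a Prox1 OE library was left out, and fell without either Control library. Of all genes, 17.1% were called higher, against 8.62% with total count and 3.98% to 21.9% when a library was left out. Members called lower numbered 1 with total count as library size (Acsm3) and 0 to 1 when a library was left out. With total count, the median log2 fold change was 0.58 for all members, 0.53 for mitochondrial and 0.74 for peroxisomal members, and Ppargc1a (-0.24), Eci2 (-0.10) and Acot1 (-0.13) changed sign without a call, while the median of all genes was -0.44. Leaving out a library gave medians of 0.90 to 1.10 for members, 0.89 to 1.11 for mitochondrial and 0.99 to 1.24 for peroxisomal members. The Hadh to Hsd17b4 difference ran from -0.11 to 0.068 and changed sign without Prox1 OE replicate 1. Settings chosen after seeing the data were Acaa1b in place of Acaa1a in the thiolase pair, which turned the shift to -0.97, and the peroxisomal sum without Acaa1b, which was 1.92 times Control in place of 2.55. Prox1 was called by edgeR (2.35) and with the replicate block (2.39), and gave 1.12 to 2.39 when a library was left out. Same-numbered samples had correlated deviations of 0.14 and 0.02, which do not pair them, and the block kept 33 members higher, with Ppara called (0.64, adjusted p = 0.0325; 0.0325 to 0.680 over all alternatives) and Crot not (0.43). Of 608 member values under alternatives, 556 kept their direction and call, and 15 members were called in all 16. The causes were not tested. With 2 Control libraries, changes near 2-fold could be missed, and p-values rest on 5 samples.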
